A study of Mus musculus with 12 samples.

Results

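The 7 genes that encode the mouse shelterin complex, Acd, Terf1, Terf2, Pot1a, Pot1b, Tinf2 and Terf2ip, were followed across 4 genotypes of whole embryos at E10.5, in mid-gestation. They were chosen by what they encode and not by their values, though earlier results of these data were known. A probe set, the group of probes that reads a transcript on an Affymetrix array, was taken as a member if its only gene symbol was one of these names. This gave 17 probe sets of 7 genes, out of 34945 probe sets with a single symbol for 18193 genes. Where a gene had several, the one with the highest mean stood for it, and the others are given beside it.

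The 12 arrays hold the RNA of 3 embryos of each genotype, which the labels call biological replicates. The wt embryos were wild type. The acd embryos were homozygous for the acd allele of Acd (Acdacd/acd), with no change at p53 named. The p53 embryos lacked p53 (p53-/-), with no change at Acd named, and the double embryos carried both changes (Acdacd/acd, p53-/-). The labels name no conditional allele or transgene and describe neither allele. The sources used here give neither strain nor litter. The transcript of p53 itself was not analysed.

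The p53 target genes, taken as a mean, split the acd embryos. Relative to wt, the mean of 8 targets was -0.20 in acd embryo 1, 0.39 in acd embryo 2 and 0.50 in acd embryo 3, against -0.33 to -0.17 in the 6 embryos lacking p53 and -0.12 to 0.099 in wt. Acd embryo 1 thus lay within the range of the embryos lacking p53. Ccng1, the target that encodes cyclin G1, measured 8.34 in acd embryo 1 and 10.16 and 10.34 in acd embryos 2 and 3, against 8.32 to 8.54 in embryos lacking p53 and 8.75 to 9.26 in wt. Not all 8 targets followed in full. Bbc3 measured 7.14, 7.18 and 7.15 in acd embryos 1, 2 and 3. It ran from 7.09 to 7.16 in wt and from 6.86 to 7.325 in embryos lacking p53. Mdm2 measured 8.909, 8.973 and 9.04 in acd embryos 1, 2 and 3. It ran from 8.945 to 9.077 in wt and from 8.815 to 8.971 in embryos lacking p53. For Mdm2, acd embryo 1 thus lay below wt and within the range of embryos lacking p53, while acd embryos 2 and 3 lay within that of wt. The Acd value of acd embryo 1 lay with those of the other embryos labelled with the acd allele. The Acd results that rest on this array are therefore also given without it. Without it the other 6 genes still passed in none of the 7 comparisons.

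Shelterin is the protein complex that covers the ends of chromosomes and keeps the cell from treating them as DNA breaks. TRF1 and TRF2, from Terf1 and Terf2, bind the double-stranded telomeric repeats, TIN2, from Tinf2, joins them, and RAP1, from Terf2ip, binds TRF2. TPP1, from Acd, connects TIN2 to the POT1 proteins on the single-stranded overhang and recruits telomerase. The mouse has a pair of POT1 genes, Pot1a and Pot1b, and p53 is the transcription factor that arrests or kills cells with damaged DNA, among them cells with unprotected telomeres.

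Acd, Terf2 and Terf2ip lie on chromosome 8, Terf1 on 1, Pot1a on 6, Tinf2 on 14 and Pot1b on 17. The 250 bases before the start of the 3 genes on the chromosome of Acd are shown, since only Acd among them carries the altered allele while the transcripts of the other 2 were read on the same arrays. The sequences are from RefSeq for build GRCm38.p6, 5′ to 3′ on each gene's strand, and capitals mark CCAAT on either strand, the box that NF-Y binds. The windows are chr8:105701229-105701478 on the minus strand for Acd, chr8:107096546-107096795 on the minus strand for Terf2 and chr8:112011109-112011358 on the plus strand for Terf2ip.
Acd: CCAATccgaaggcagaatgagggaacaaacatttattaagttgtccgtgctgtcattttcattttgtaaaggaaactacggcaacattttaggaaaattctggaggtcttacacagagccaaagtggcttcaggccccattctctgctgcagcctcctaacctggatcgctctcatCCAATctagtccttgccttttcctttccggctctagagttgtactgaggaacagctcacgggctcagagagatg
Terf2: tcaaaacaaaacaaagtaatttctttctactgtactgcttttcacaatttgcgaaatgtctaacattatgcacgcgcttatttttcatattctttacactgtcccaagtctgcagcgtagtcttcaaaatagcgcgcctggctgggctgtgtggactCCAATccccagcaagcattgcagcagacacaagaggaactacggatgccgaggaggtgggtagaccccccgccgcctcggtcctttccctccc
Terf2ip: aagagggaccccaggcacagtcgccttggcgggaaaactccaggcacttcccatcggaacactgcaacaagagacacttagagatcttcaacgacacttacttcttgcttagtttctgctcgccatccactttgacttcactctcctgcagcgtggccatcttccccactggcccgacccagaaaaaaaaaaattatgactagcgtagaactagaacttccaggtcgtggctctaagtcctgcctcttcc
RefSeq gave 8 such windows for 6 of the 7 genes, with nearly identical pairs for Terf2 and Pot1b. CCAAT was found on either strand in 5 of the 8, those of Acd, Terf2 and Pot1b, against 33.8% of 32851 windows of all genes. The motif GGGCGG, a GC box, was found on either strand in 3, those of Pot1a and Pot1b, against 32.7%. The p53 motif that makes up each arm of its binding site was found in 0 of the 8, against 7.13%. A match is a description of the letters in the window, and promoter activity was not measured.

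Acd was the only shelterin gene that passed the test in any comparison of genotypes. It fell in embryos homozygous for the acd allele, to 0.642 of the level without it when averaged over both p53 states (95% interval 0.588 to 0.701). The transcripts of the other 6 genes passed in none of the 7 comparisons, although Terf2ip and Tinf2 did so for double against acd under one alternative setting. Even at its lowest, 8.22 log2 units in an acd embryo, Acd lay far above the level of genes that embryos do not use, 4.65 log2 units, taken as the 95th percentile of 44 olfactory receptor probe sets.

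Acd was read by a single probe set (1420882_a_at). It measured 9.00, 8.99 and 8.99 log2 units in the 3 wt embryos and 8.84, 8.85 and 9.05 in the 3 p53 embryos. In acd embryos it measured 8.27, 8.31 and 8.22, and in double embryos 8.44, 8.42 and 8.24. All 6 arrays of embryos with the acd allele were thus lower than all 6 without it, with no overlap. The share of all tested genes that separate in this way was not counted. The Acd group means were 8.99 ± 0.0052 in wt, 8.91 ± 0.12 in p53, 8.36 ± 0.11 in double and 8.26 ± 0.046 in acd (SD, n = 3 each). In this order wt and p53 overlapped, as did double and acd, and a gap lay between p53 and double. The suffix of the probe set marks probes shared by several transcripts of the gene, and where they lie relative to the altered part of the allele is not known. They therefore read RNA of the locus and do not show how much intact message was left. In RNA of a whole embryo, fewer cells with a transcript and less of it per cell cannot be told apart.

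Acd against wt asks what homozygous acd changes in embryos with no change at p53 in their labels. Acd fell by 0.73 ± 0.082 log2 units (SE), a ratio of 0.603 (95% interval 0.532 to 0.683). The limma fit over 13500 tested genes, with Benjamini-Hochberg adjustment, gave an adjusted p of 0.0113. Of all tested genes 0.0148% passed in this comparison, namely Acd and Elmo3. Leaving out any single array of these 6 ended the call, with adjusted p from 0.054 to 0.131. Without acd embryo 1 the difference was -0.73 ± 0.098 (adjusted p = 0.054). The call also ended in a fit with a term for sex (-0.77, adjusted p = 0.0645). The sexes were unevenly spread, as Y-linked transcripts were found in 1 of 3 wt and 1 of 3 double embryos and in 3 of 3 of both other genotypes.

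Without p53, the same question was asked in double against p53. The Acd difference was -0.55 ± 0.082 log2 units, a ratio of 0.683 (95% interval 0.603 to 0.774), with every double array lower than every p53 array. Terf2ip separated in the same way in this comparison, and the share of all tested genes that did so was not counted. Acd had the second smallest p-value of all tested genes but did not pass adjustment (limma adjusted p = 0.183). In this comparison 0.00741% of tested genes passed, which is Elmo3 alone, and 0 of the 7 shelterin genes, with 1 shelterin gene and 1450 genes in all at an unadjusted p under 0.05. Double embryos 1 and 2 differed from all other arrays over the whole transcriptome. Without both of them the Acd difference was -0.68 and passed (adjusted p = 0.0176), although the double arm then held 1 array, assumed to vary as the other genotypes do. In that setting 28 genes passed in all. Without double embryo 3 it was -0.49 and passed (adjusted p = 0.00528), but so did 1756 of the 13500 genes, against 1 with all arrays. Over the 25 alternatives its adjusted p ran from 0.00528 to 0.856.

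Averaged over both p53 states, all 12 arrays contribute to the effect of the acd allele. Acd fell by 0.64 ± 0.058 log2 units (95% interval -0.77 to -0.51, limma adjusted p = 0.00121). Again 0.0148% of tested genes passed, Acd and Elmo3. This call was kept without each of the 12 arrays in turn (adjusted p 0.000128 to 0.00987) and in the 12 other settings tried. Without acd embryo 1 the difference was -0.64 ± 0.066 (adjusted p = 0.00912). The difference was not shown to depend on p53. The interaction, by how much the difference in double against p53 exceeded that in acd against wt, was 0.18 ± 0.12 for Acd, with an interval from -0.074 to 0.43 and an adjusted p of 0.879. Without acd embryo 1 it was 0.18 ± 0.13 (adjusted p = 0.915). Of all tested genes 0% passed the interaction by limma, with 530 at an unadjusted p under 0.05 and 0 of the 7 shelterin genes among them.

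Loss of p53 itself left the Acd values within their spread. Acd differed by -0.081 ± 0.082 in p53 against wt (adjusted p = 1) and by 0.10 ± 0.082 in double against acd (adjusted p = 0.594). Averaged over the acd states the difference was 0.0095 ± 0.058, with an interval from -0.12 to 0.14. Each of these 3 comparisons had 0% of tested genes past the limma threshold, with 97, 1699 and 660 genes at an unadjusted p under 0.05. Among those were 0, 1 and 0 shelterin genes. Comparisons of one allele in the presence and absence of the other share arrays with each other and are not independent.

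**Figure D1:**
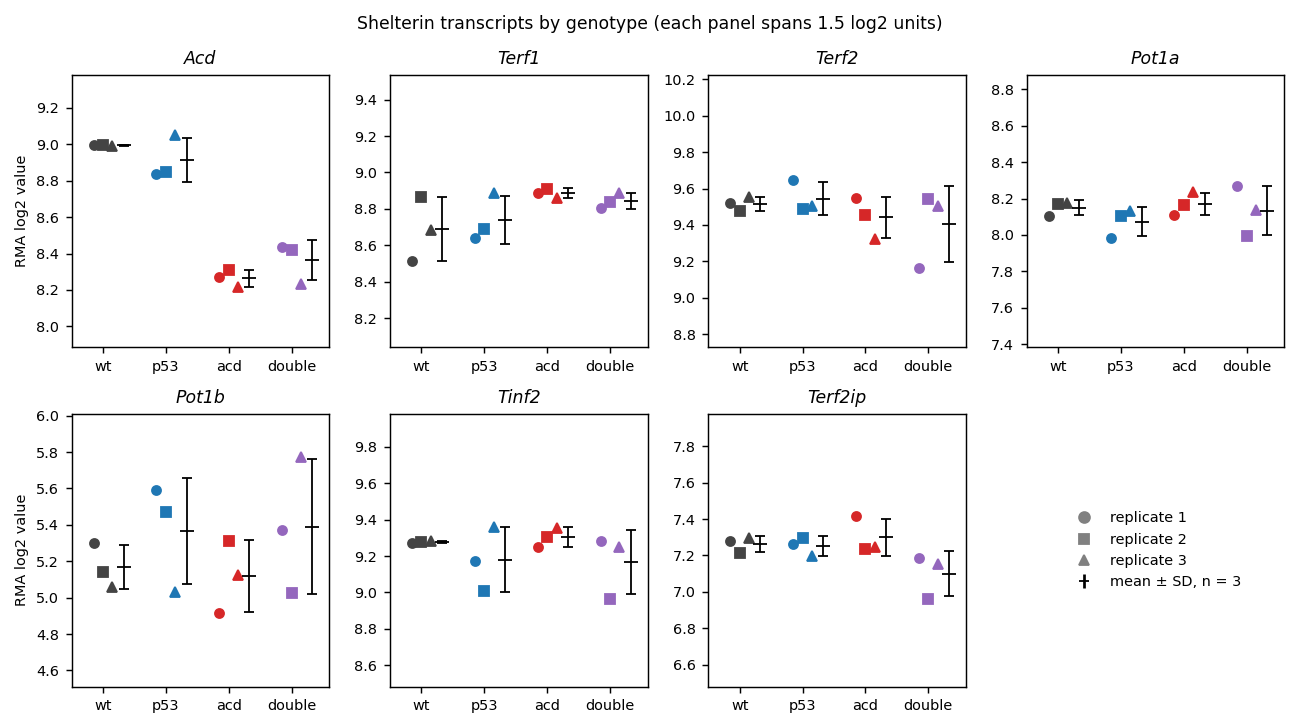
RMA log2 value of each shelterin gene by genotype, 1 point per embryo with the replicate number as its shape, and the mean ± SD of 3 embryos as a bar; every panel spans the same number of log2 units, and levels of different genes are not comparable. The acd and double points of Acd, from 8.22 to 8.44, lie below its wt and p53 points, from 8.84 to 9.05, while in each other panel the acd and double points together overlap the wt and p53 points.

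The duplex-binding proteins came from 2 transcripts, neither of which passed in any comparison. Terf1, the gene of TRF1, which limits telomere length and helps replication forks pass through telomeres, measured 8.51, 8.86 and 8.69 in wt and 8.64, 8.69 and 8.89 in p53. It measured 8.89, 8.91 and 8.86 in acd and 8.80, 8.84 and 8.89 in double embryos. The acd values lay close together and overlapped the highest wt value. Terf1 differed by 0.20 ± 0.096 in acd against wt (adjusted p = 1) and by 0.15 ± 0.068 averaged over p53, where its unadjusted p of 0.048 became 0.755 after adjustment. Its other probe sets did not all share this direction. The averaged difference was 0.11 ± 0.088 for 1431332_a_at and -0.061 ± 0.16 for 1443527_at, which lay near the array medians.

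Terf2 encodes TRF2, which folds the telomere end and holds off the ATM kinase and end joining. It measured 9.52, 9.48 and 9.55 in wt, 9.65, 9.49 and 9.50 in p53, 9.55, 9.46 and 9.32 in acd, and 9.16, 9.54 and 9.50 in double embryos. Only double embryo 1 lay clearly lower, and the genotypes overlapped. The averaged acd difference was -0.11 ± 0.074 (adjusted p = 0.755). The 2 other probe sets gave -0.074 ± 0.055 (1455651_at) and -0.087 ± 0.07 (1459650_at), in the same direction and likewise not past the threshold.

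Terf2ip encodes RAP1, the TRF2 partner that restrains recombination at telomeres. Its values were 7.28, 7.21 and 7.29 in wt, 7.26, 7.30 and 7.19 in p53, 7.42, 7.24 and 7.25 in acd, and 7.19, 6.96 and 7.15 in double embryos. All 3 double values were lower than every value of the other genotypes, though only narrowly. The highest of them was 7.187 in double embryo 1, next to 7.194 in p53 embryo 3. How many other tested genes separate in this way was not counted. The difference was -0.20 ± 0.083 in double against acd, where an unadjusted p of 0.0324 became 0.382 after adjustment, and -0.15 ± 0.083 in double against p53 (adjusted p = 0.474). With arrays weighted by their agreement, double against acd gave -0.30 and passed (adjusted p = 0.0281), in a setting where 1777 genes passed. Its adjusted p under the other alternatives reached 0.806. The second probe set (1419381_at), whose values lay between 5.23 and 5.68, did not share the difference, with -0.028 ± 0.12 in double against acd. Its probe set 1456400_at lay between 3.07 and 3.39, in the range of genes that embryos do not use.

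Tinf2 encodes TIN2, the hub that holds TRF1, TRF2 and TPP1 together. It measured 9.27, 9.28 and 9.28 in wt, 9.18, 9.01 and 9.36 in p53, 9.25, 9.31 and 9.36 in acd, and 9.28, 8.96 and 9.25 in double embryos. The lowest values were those of p53 embryo 2 and double embryo 2, and all genotypes overlapped. As the direct partner of TPP1, its averaged acd difference was 0.0060 ± 0.074, with an interval from -0.16 to 0.17 (adjusted p = 0.985). Its other probe set (1437166_at) gave -0.062 ± 0.068. In double against acd Tinf2 differed by -0.14 ± 0.1 (adjusted p = 0.56), and with array weights by -0.29 (adjusted p = 0.047, in the setting where 1777 genes passed, against up to 0.97 under other alternatives), whereas the other probe set gave 0.023 ± 0.097 without weights.

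The single-strand binding proteins are those that TPP1 brings to telomeres. Pot1a, which keeps the ATR kinase from acting at telomere ends, measured 8.10, 8.17 and 8.18 in wt, 7.98, 8.10 and 8.13 in p53, 8.11, 8.17 and 8.23 in acd, and 8.27, 7.99 and 8.14 in double embryos. No genotype stood apart. Its averaged acd difference was 0.041 ± 0.059, with an interval from -0.088 to 0.17 (adjusted p = 0.842), so a fall as large as that of Acd lay outside the interval. The 3 other Pot1a probe sets lay between 3.03 and 4.36 on all arrays, at or below the level of genes that embryos do not use, and passed no filter.

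Pot1b, which controls the trimming of the strand opposite the overhang, was read by a single probe set near the array medians, where background can compress differences. It measured 5.30, 5.14 and 5.06 in wt, 5.59, 5.47 and 5.03 in p53, 4.92, 5.31 and 5.12 in acd, and 5.37, 5.03 and 5.77 in double embryos. Its SD was the largest of the 7 genes in p53, acd and double embryos, at 0.29, 0.20 and 0.37, though not in wt embryos. The averaged acd difference was -0.012 ± 0.13 (adjusted p = 0.981). Averaged over acd states, loss of p53 gave 0.24 ± 0.13, with an interval from -0.055 to 0.53 (adjusted p = 0.814). A stricter filter on low values, at the 60th percentile, left this gene out.

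**Figure D2:**
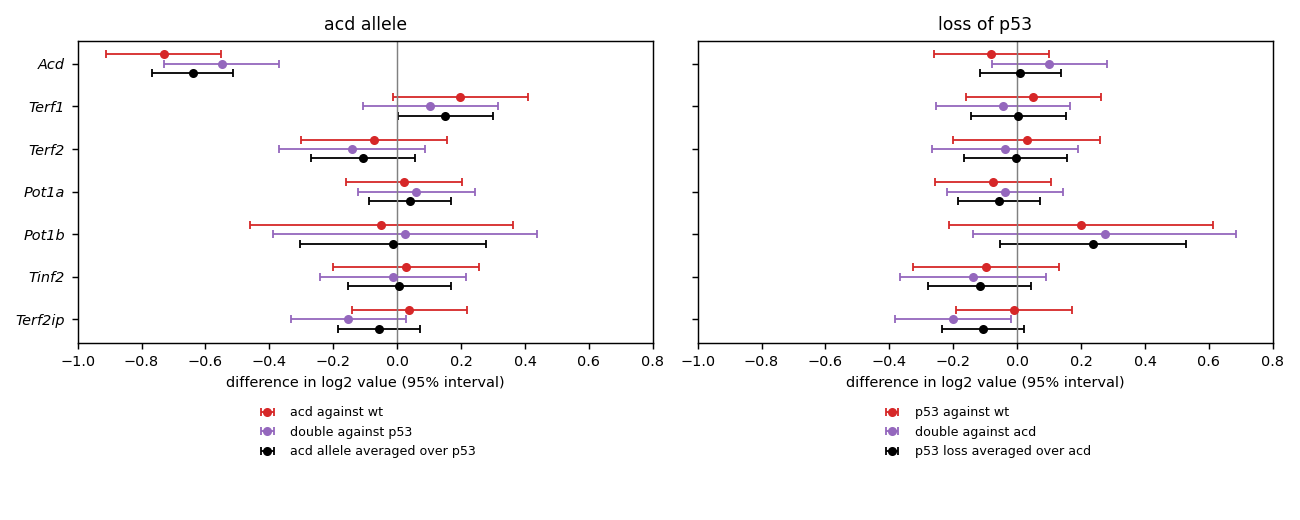
Difference in log2 value of each shelterin gene for the acd allele (left) and for loss of p53 (right), with 95% intervals from the limma fit; colours give the comparison within wild-type or mutant embryos and their average. The Acd intervals for the acd allele end at -0.55, -0.37 and -0.51, away from 0, while those for loss of p53 hold 0.

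For the acd allele averaged over p53, the 6 genes other than Acd ran from -0.11 to 0.15, with 3 higher, 3 lower and a median of -0.0032. Over all tested genes the median was -0.0074 and the median size 0.07, so these 6 lay about where most genes lay. In acd against wt 4 of the 6 were higher and in double against p53 3 were. In double against acd 5 of the 6 were lower, with Pot1b the exception at 0.27 ± 0.19 (adjusted p = 0.528). Averaged per array, the 6 genes lay between -0.12 and 0.11 relative to wt, and the lowest and the highest array were both double embryos. All 7 genes passed the filter on low values, as did 13 of the 17 probe sets.

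**Figure D3:**
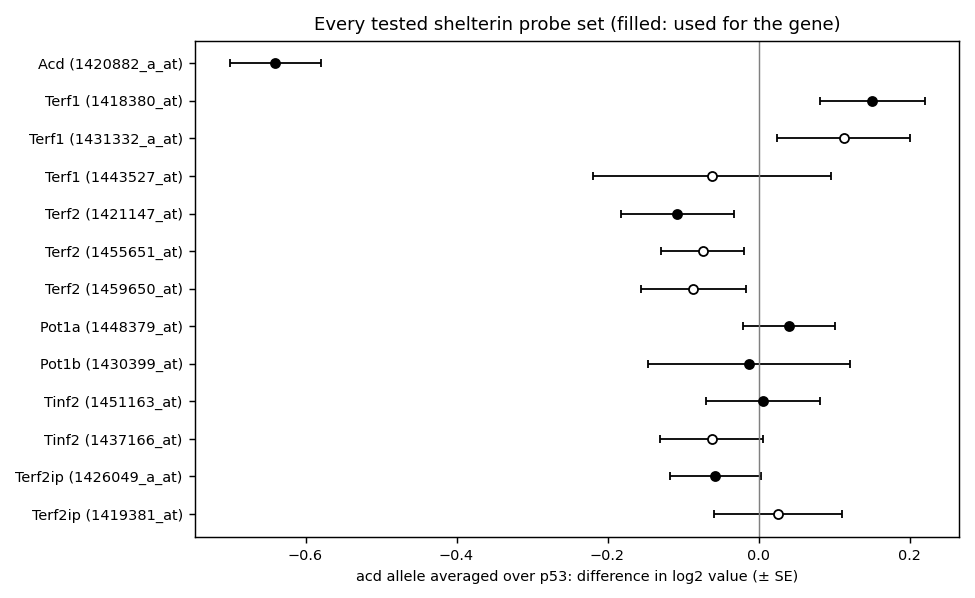
Difference for the acd allele averaged over p53 (log2, ± SE) for each of the 13 shelterin probe sets that passed the filter, fitted over 24151 probe sets; filled points are the probe sets used for the gene. Acd stands at -0.64, and the rest lie between -0.11 and 0.15, with probe sets of Terf1, Tinf2 and Terf2ip on both sides of 0.

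Other telomere genes were read as a list of 26, which held telomerase (Tert, Terc and the proteins that assemble it), the CST complex that fills in the end (Ctc1, Stn1, Ten1), tankyrases, and nucleases, helicases and repair proteins that act at telomeres. Terc had no probe set, and the other 25 were tested. In acd against wt 11 of the 25 were lower and 14 higher, with a median of 0.019. In double against p53 20 were lower, with a median of -0.19, and averaged over p53 22 were lower, with a median of -0.10. The call count was 0 of 25 by limma in each of the 7 comparisons. At an unadjusted p under 0.05 there were 7 in double against p53, 6 in double against acd, 2 each in the average over acd states and the interaction, and 0 in the other 3. As shares of the list these are 28%, 24%, 8% and 8%, against 10.7%, 12.6%, 4.89% and 3.93% of all tested genes. Among all tested genes 47.2% were higher in acd against wt, 48% in double against p53 and 47.1% in the average.

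The low values of these genes lay in 2 embryos. Relative to wt, the list mean was -0.30 in double embryo 1, -0.20 in double embryo 2 and 0.0083 in double embryo 3. In the other 9 arrays it lay between -0.033 and 0.056. Without double embryos 1 and 2, a setting chosen after the values were seen, 10 of 25 were lower in double against p53 and 12 of 25 in the average, with medians of 0.009 and 0.0027.

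The 6 listed genes with the smallest p-values in the average were Tnks, Gar1, Dclre1b, Rtel1, Pinx1 and Blm, each with an adjusted p of 0.755. Blm, a helicase that unwinds repair and replication intermediates, ranged from 9.32 to 9.43 in embryos without the acd allele and from 9.35 to 9.39 in acd. It measured 8.61, 9.15 and 9.39 in double embryos, an averaged difference of -0.17 ± 0.1. Gar1, a protein of the telomerase particle and of ribosomal RNA modification, measured 10.47, 10.75 and 11.07 in double embryos against 11.0 to 11.2 elsewhere (-0.16 ± 0.086). Tnks, a tankyrase that releases TRF1 from telomeres, measured 8.73, 9.07 and 9.30 in double embryos and 9.22 to 9.37 elsewhere (-0.18 ± 0.084). In each of these 3 genes double embryo 1 was lowest and double embryo 3 lay within the range of the other genotypes. Dclre1b, the Apollo nuclease that TRF2 recruits, gave -0.14 ± 0.074, the helicase Rtel1 -0.12 ± 0.073, and Pinx1, which binds TRF1 and telomerase, -0.12 ± 0.073.

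**Figure D4:**
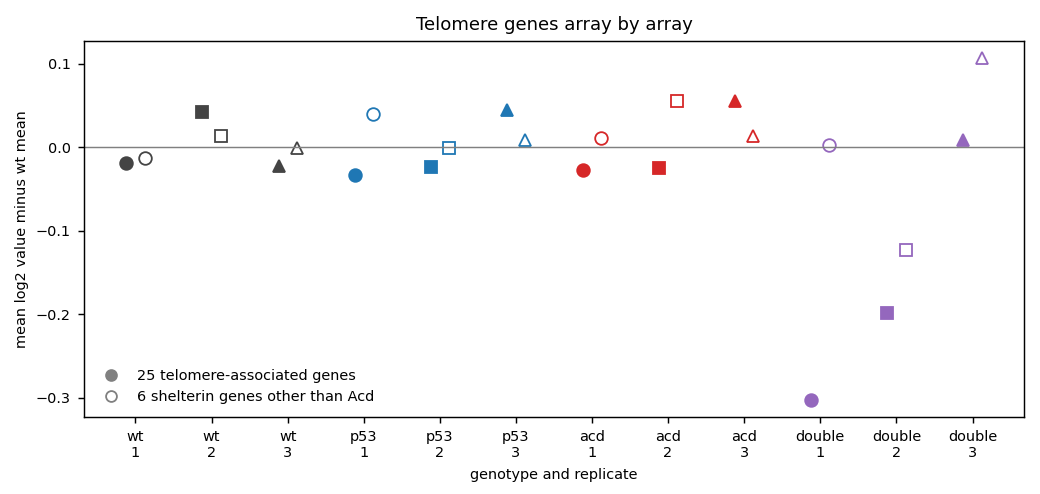
Mean log2 value relative to the wt mean in each of the 12 embryos for the 25 telomere-associated genes (filled) and the 6 shelterin genes other than Acd (open), 1 point per array. Double embryos 1 and 2 lie at -0.30 and -0.20 for the filled points, while all other filled points lie between -0.033 and 0.056.

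Double embryos 1 and 2 also stood apart in other respects. Their median correlations with the other arrays over tested genes were 0.972 and 0.987, against at least 0.995 for the rest, and the median SD per gene was 0.209 in double embryos and from 0.0588 to 0.0953 in the other genotypes. Of the 5 measured of 7 interferon response genes, Rsad2 measured 10.72 and 10.49 in these embryos and 6.27 to 6.95 in the other 10, and Irf9 9.52 and 9.22 against 6.37 to 6.85. Ifit1, Ifit3 and Irf7 lay at 6.11 or higher in these embryos and below 4.65, the olfactory receptor level, in the other 10, so no size is given. Relative to wt, the 6 of 6 measured macrophage markers averaged 1.40 and 1.13 against -0.26 to 0.14. The 4 endoderm and liver markers averaged 2.44 and 1.98 against -0.29 to 1.47. The 1.47 was that of p53 embryo 2, and the next highest was 0.56 in acd embryo 1. In p53 embryo 2 Afp measured 12.6, Ttr 10.99 and Apoa1 8.65. In double embryos 1 and 2 Afp measured 12.63 and 12.72, Ttr 11.8 and 11.0, and Apoa1 8.88 and 8.09. Alb measured 7.43 in p53 embryo 2, against 10.25 and 9.89 in double embryos 1 and 2. The 4 measured of 5 proliferation genes averaged -0.44 in double embryo 1, against -0.089 to 0.047 in the other 10. Double embryo 2, at -0.051, lay inside that range. The 3 neuron markers averaged 0.43 and 0.69 in double embryos 1 and 2 against -0.55 to 0.12. Among them Elavl3 was not raised in double embryo 1, with 8.147 there and 8.955 in double embryo 2 against 8.231 to 8.544 in wt. In double embryo 1 the means of the 4 neural progenitor markers (-0.35) and the 4 somite markers (-0.42) were low. In the other 10 embryos they ran from -0.091 to 0.069 and from -0.24 to 0.12. Double embryo 2, at -0.098 and -0.13, lay just below the first range and inside the second. Not every marker followed its mean. Nes, a progenitor marker, measured 10.51 and 10.57 in double embryos 1 and 2 against 10.01 to 10.43 in the other 10. Tcf15, a somite marker, measured 8.78 and 8.65 against 8.44 to 8.79. The part of these differences in the telomere gene values was not tested. Markers of neural, cardiac, erythroid, somite, limb and neural crest cells lay on every array above 4.65. The 3 measured of 5 trophoblast and decidua markers, Tpbpa, Prl8a2 and Psg17, lay at or below it on all 12 arrays. The number of arrays limits the precision.

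Neighbours of Acd were read to see whether nearby transcripts moved with it. The 10 tested genes on each side, in the order of the annotation, had 0 of 20 past the limma threshold for the averaged acd allele, with 11 higher, 9 lower and a median size of 0.066 against 0.07 over all tested genes. The nearest, Carmil2 and Pard6a, gave 0.066 ± 0.071 and 0.088 ± 0.086. Terf2 and Terf2ip lie 36 and 85 tested genes from Acd. Elmo3, an engulfment and cell motility gene 12 tested genes away, ranged from 4.66 to 5.53 without the acd allele, around or below the array medians, and from 7.35 to 7.96 with it. It was higher in all 3 acd allele comparisons (limma adjusted p 0.000216, 4.61e-05 and 2.03e-06), with no size given, since its low values are near background.

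**Figure D5:**
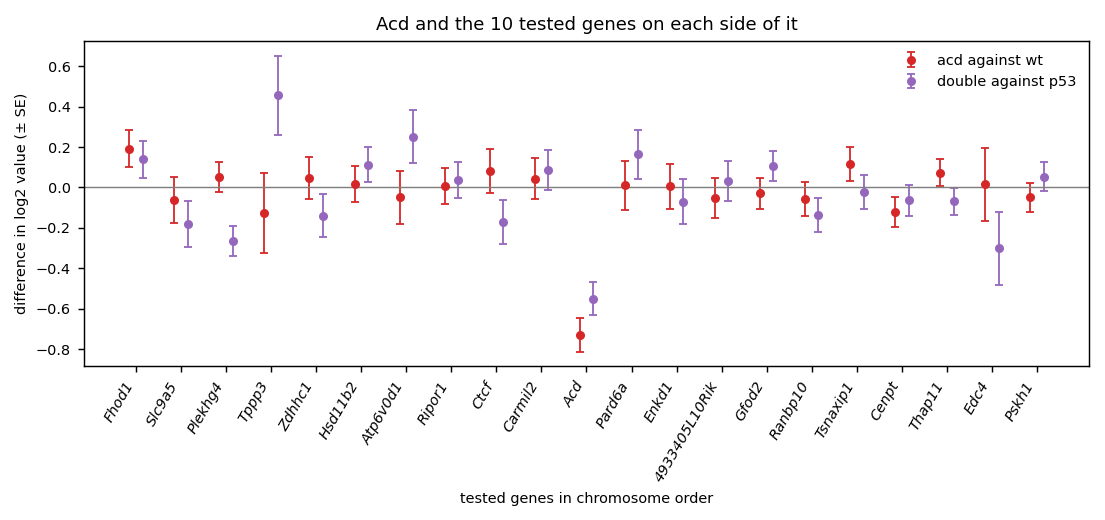
Difference in log2 value (± SE) of Acd and the 10 tested genes on each side of it, in chromosome order, in acd against wt and in double against p53. Acd lies at -0.73 and -0.55, while the 20 neighbours lie between -0.30 and 0.46 and none passed the threshold.

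The genes whose values were most like those of Acd over the 12 arrays, by Pearson correlation, were Hoxd10 (0.85), Ndst2 (0.84), Skiv2l (0.83), Socs5 (0.83) and Klhl25 (0.82). Those most opposed were Elmo3 (-0.94), Dnajc3 (-0.81), Hspa5 (-0.79), Gzmm (-0.78) and Snap29 (-0.77). These arrays fall into an upper and a lower set of Acd values, and the coefficients carry that difference between genotypes. With each genotype centred on its mean, the 5 most like Acd ran from -0.34 (Klhl25) to 0.57 (Ndst2), with Socs5 also below 0. The 5 most opposed then ran from -0.72 (Gzmm) to 0.15 (Snap29), with Elmo3 at -0.064. Without this centring, 1 in 100 of all tested genes had a correlation with Acd below -0.585 and as many above 0.639. No such range was computed for centred values or for pairs of genes without Acd. Of these 10 genes Elmo3 alone passed for the averaged acd allele, and the other 9 had an adjusted p of 0.755 each. Their averaged acd differences were -0.28 ± 0.068 for Hoxd10, a posterior Hox gene, and, for Dnajc3 and Hspa5, chaperones of the endoplasmic reticulum, 0.22 ± 0.067 and 0.094 ± 0.045. The other shelterin genes correlated with Acd from -0.57 (Terf1) to 0.36 (Terf2). With genotypes centred both turned sign, to 0.32 and -0.29, and the strongest was Pot1b at -0.73, which had been -0.095. Among pairs of members the extremes were Terf2 with Pot1a (-0.81, or -0.88 with genotypes centred) and Pot1a with Tinf2 (0.67, or 0.65). Their Spearman rank correlations, without centring, were -0.66 and 0.72. Double embryo 1, which differed from the other arrays over the whole transcriptome, had the lowest Terf2 value, 9.16, and the highest Pot1a value, 8.27.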

How the data were processed

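RNA of 12 whole mouse embryos was hybridised to Affymetrix 3′ expression arrays, 1 array per embryo, per the labels' protocols. The deposited values are log2 expression values, made by the authors with justRMA, and genes were selected by them with BRB-Array tools 4.4.0, per the series' design text. RMA makes the distributions of all arrays nearly alike, which hides changes in total RNA. Array medians lay between 5.32 and 5.40, and values were used as deposited. The table held 45101 probe sets, including 64 controls. A single symbol was annotated for 34945 of them and several for 932, while 9160 others were not listed. Of the first kind 34741 matched RefSeq genes (GRCm38.p6) by identifier, which gave chromosomes, gene order and promoter windows.

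A gene was tested where its probe set exceeded the 40th percentile on 3 or more arrays, as 13500 of 18193 did. Genotype and replicate came from the sample titles. Genotype means over all 12 arrays were fitted with limma 3.58.1 in R 4.3.3 (8 residual degrees of freedom, empirical Bayes, two-sided, Benjamini-Hochberg over all tested genes, threshold 0.05). Tested on simulated data for the averaged acd comparison over 13500 genes, the fit recovered 97 of 100 genes changed by 0.7 log2 units and 99 of 100 changed by 1.5. Each size was given to 100 genes, whereas 2 genes passed in this comparison of the embryos. Recovery among the real arrays, whose median SD per gene was 0.21 in double embryos and 0.059 to 0.095 in the other genotypes, was not tested. Olfactory receptor probe sets (44) gave the background reference.

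The text names all 7 members, the 6 listed telomere genes with the smallest p, the 5 genes most and least correlated with Acd, and its nearest neighbours; Elmo3 is also the only other gene that passed. Members and lists were chosen with earlier results of these data known, so they are not independent evidence. Alternatives were a replicate block, other filters, probe set rules, normalizations and variance models, array weights, sex, a threshold of 0.10, only the arrays compared, and leaving out arrays. The replicate numbers did not pair the embryos, since deviations of same-numbered arrays correlated from -0.23 to 0.30.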

Additional observations from a re-analysis of the deposited data

How the results depend on the processing

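For the acd allele averaged over p53, Acd kept its direction and its call in all 24 alternatives, from -0.70 to -0.60. In acd against wt its direction was kept in all 25 and its call in 17, with adjusted p from 3.57e-05 to 0.131. Leaving out 1 array gave -0.75 to -0.71 with 0 to 1 shelterin genes called. A replicate block left it at -0.73 (adjusted p = 0.0883) and sex as a term at -0.77 (adjusted p = 0.0645), with 0 called in both. The block changed no other call of these genes. In double against p53, leaving out 1 array gave -0.59 to -0.48 with 0 to 1 called. Array weights gave -0.53 (adjusted p = 0.0138) and leaving out double embryos 1 and 2 gave -0.68 (adjusted p = 0.0176), with 1 shelterin gene called in both, among 122 and 28 genes in all against 1. In double against acd, array weights called 2 members, Terf2ip and Tinf2, against 0, among 1777 genes in all against 0, and the Acd value without double embryos 1 and 2 was -0.029. For p53 loss averaged over acd, the Acd value was -0.055 without these 2 and from -0.026 to 0.042 leaving out 1 array. The cause of these shifts was not tested.

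Of 1025 values of the other 6 members under alternatives, 88 turned sign, with neither value past the threshold and both 95% intervals holding 0, 0 turned otherwise and 2 passed. Genes called in all rose most without double embryo 3: from 1 to 1756 in double against p53, from 2 to 281 in the averaged acd allele, and from 0 to 1876 in double against acd, 385 in averaged p53 loss and 439 in the interaction. In acd against wt the count lay between 1 and 3, and in p53 against wt between 0 and 1. Fitting only the arrays compared could not be done for the averages and the interaction. Signal near background limits Pot1b and the minor probe sets.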
